A study of Homo sapiens with 9 samples.

Results

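The 10 cyclin genes listed here were followed through 5 lists of RNA polymerase II (RNAPII) peaks from HEK293 cells: CCND1, CCND2, CCND3, CCNE1, CCNE2, CCNA2, CCNB1, CCNB2, CCNG1 and CCNI. They are 10 of 19820 protein-coding genes, chosen by name, and a peak was assigned to a gene when it overlapped the GENCODE span in GRCh37 widened by 500 bp. Such peaks numbered 150 of the 142069 in all 5 lists. Peaks reaching within 500 bp of the transcription start site (TSS) of any coding transcript of the gene are called TSS peaks, and the remaining ones gene-body peaks.

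RNAPII occupancy was measured by chromatin immunoprecipitation and sequencing (ChIP-seq) to ask how its distribution responds to the level of RECQL5, a DNA helicase bound to RNAPII. In the hairpin arm, HEK293 cells, a human embryonic kidney line, were infected with lentivirus for a control shRNA or for shRNA5 or shRNA7 against RECQL5. In the doxycycline arm, HEK293 T-REx cells had been transfected with pcDNA4/TO-RECQL5, which places the full-length protein under a doxycycline-inducible promoter, and were given 0.0 or 1.0 ng/ml of the drug. Each of the 5 RNAPII libraries was the only one of its group, so there were no replicates, no test between conditions was possible, and every interval below covers counting error only. The labels do not say whether the cells were clones or pools, and HEK293 cells carry the adenoviral E1A and E1B genes, whose products bind the RB family and p53. The identity of the line was not checked against marker genes, since peaks do not measure transcripts.

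Cyclins are the regulatory subunits of cyclin-dependent kinases (CDKs), and those of the classical cell cycle can be grouped by the phase in which they act. D-type cyclins partner CDK4 and CDK6 and start the phosphorylation of the retinoblastoma protein RB, E-type cyclins with CDK2 carry cells into S phase, cyclin A2 acts from S phase onwards, and B-type cyclins with CDK1 drive mitosis. Transcription of the E, A and B genes is periodic, through E2F sites early in the cycle and through CCAAT boxes and the cell cycle homology region (CHR) later.

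The promoters of 5 of the 6 members named for printing are shown. For each, the 250 bases ending just before the leading TSS are given 5′ to 3′ on the gene strand of GRCh37. The leading TSS is that of the Ensembl canonical transcript. Capitals mark matches on either strand to 7 short motifs: the CCAAT box, the core TTTGAA of the CHR, the TATA box TATAAA, the GC box GGGCGG, the E2F site in its forms TTTGGCGC and TTTCGCGC, and the cyclic AMP response element (CRE) TGACGTCA.
CCND1, chr11:69455674-69455923, plus strand: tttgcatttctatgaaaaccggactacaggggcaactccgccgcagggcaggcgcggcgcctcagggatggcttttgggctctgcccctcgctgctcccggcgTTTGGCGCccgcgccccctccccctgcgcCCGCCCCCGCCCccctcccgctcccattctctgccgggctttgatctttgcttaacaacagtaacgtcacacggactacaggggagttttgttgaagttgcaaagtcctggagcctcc
CCNE1, chr19:30302648-30302897, plus strand: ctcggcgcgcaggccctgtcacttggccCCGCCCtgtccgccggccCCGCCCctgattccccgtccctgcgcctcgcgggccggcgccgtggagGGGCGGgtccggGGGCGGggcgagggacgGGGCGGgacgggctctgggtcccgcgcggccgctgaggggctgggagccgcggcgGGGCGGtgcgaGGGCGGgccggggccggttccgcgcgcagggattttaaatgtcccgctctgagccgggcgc
CCNA2, chr4:122745039-122745288, minus strand: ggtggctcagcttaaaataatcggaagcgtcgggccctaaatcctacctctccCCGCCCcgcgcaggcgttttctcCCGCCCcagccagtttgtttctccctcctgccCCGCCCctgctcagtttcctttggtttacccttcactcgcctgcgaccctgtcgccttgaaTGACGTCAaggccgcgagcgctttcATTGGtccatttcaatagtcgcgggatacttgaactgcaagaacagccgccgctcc
CCNB1, chr5:68462727-68462976, plus strand: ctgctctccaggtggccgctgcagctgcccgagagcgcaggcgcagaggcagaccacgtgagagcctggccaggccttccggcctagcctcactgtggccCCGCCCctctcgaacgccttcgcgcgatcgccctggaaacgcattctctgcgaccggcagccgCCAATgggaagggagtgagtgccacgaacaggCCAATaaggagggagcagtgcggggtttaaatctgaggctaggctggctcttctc
CCNG1, chr5:162864351-162864600, plus strand: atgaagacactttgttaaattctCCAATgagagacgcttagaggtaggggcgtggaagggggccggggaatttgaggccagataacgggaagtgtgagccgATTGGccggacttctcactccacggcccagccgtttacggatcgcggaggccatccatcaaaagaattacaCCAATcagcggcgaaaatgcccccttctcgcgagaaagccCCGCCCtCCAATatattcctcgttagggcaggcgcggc

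The CCND1 window held 1 TTTGGCGC, found in 0.707% of 19798 protein-coding promoters of this length, and 2 adjoining GC boxes. That of CCNE1 held 7 GC boxes, a motif present in 59% of promoters, and at 81.2% it had the highest G+C content of the 10. CCNA2 held a TGACGTCA, found in 2.43% of promoters, which began 81 bases before the TSS, followed by a CCAAT box on the opposite strand. The windows of CCNB1 and CCNG1 held 2 and 4 CCAAT boxes, and that of CCNB2, not printed, held 4 together with 1 TTTGAA. The CCAAT box was present in 34.3% of promoters and TTTGAA in 10.2%. Among the other members CCND3 and CCNE2 each held 1 CCAAT box, and CCND2 held 1 TTTGAA and CCNI held only 1 GC box. TATAAA (9.35% of promoters) and TTTCGCGC (0.611%) were in none of the 10 windows. CCAAT was therefore in the windows of the 4 members with a control peak at the leading TSS (CCNA2, CCNB1, CCNB2 and CCNG1) and in those of CCND3 and CCNE2, which had none there. This is a description of these letters and not of factor binding. Only exact matches were sought, so variant forms of a motif were not counted.

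The 5 lists differed in length, from 5287 peaks with the control hairpin to 23698 upon shRNA5 and 32124 upon shRNA7, and from 47060 without doxycycline to 33900 with it. The study's methods report more peaks than these for wild-type, shRNA5 and shRNA7 cells, and the deposited control list falls proportionally furthest below its reported number. Absence of a control peak below rests on this short list. Tags in peaks ran from 842310 to 6698771 per list, and the authors did not normalise them. The study's methods describe read numbers as similar among compared samples but give only ranges, so tags were not scaled by depth. Median peak lengths of 1834 to 2024 bp in the hairpin arm stood against 622 and 689 bp in the doxycycline arm, so tags and peak numbers were compared only within an arm. RECQL5 itself had no peak in the control and shRNA5 lists, 2 peaks upon shRNA7, and 8 peaks in each of the doxycycline lists, where its own gene and the plasmid share sequence. Peak lists do not measure RECQL5 transcript, and thus give no check of the knockdown.

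**Figure D1:**
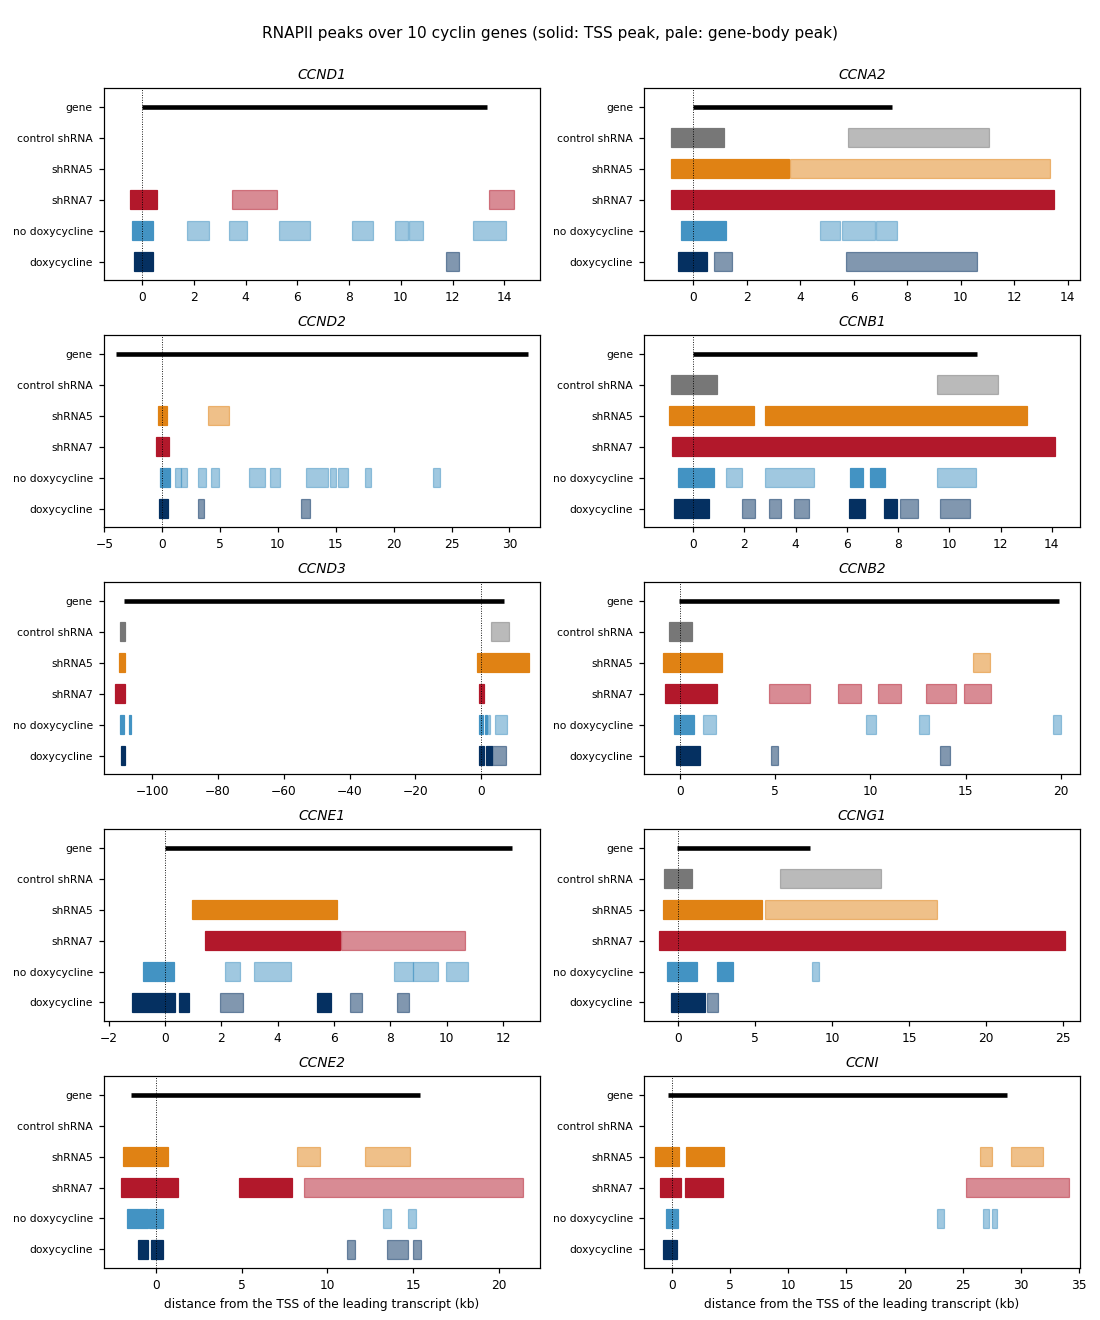
RNAPII peaks over each of the 10 cyclin genes, drawn to scale for each gene against the distance from the TSS of its leading transcript in kb (dotted line), with the gene as a black bar and 1 row per list. TSS peaks are solid and gene-body peaks pale; CCND1, CCND2, CCNE1, CCNE2 and CCNI have no control peak, and CCNA2, CCNB1 and CCNG1 are each covered by 1 peak upon shRNA7.

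The first question was which cyclin genes carried RNAPII at a start site. With the control hairpin 5 of the 10 had a TSS peak (CCND3, CCNA2, CCNB1, CCNB2 and CCNG1), against 17.3% of all protein-coding genes. Upon shRNA5 it was 9 of 10, all but CCND1, against 44.5% of all genes, and upon shRNA7 it was 10 of 10, against 52.8%. TSS peaks were found at 10 of 10 without doxycycline (57% of all genes) and at 10 of 10 with it (48.2%). Thus 4 members had a TSS peak upon shRNA5 but not with the control hairpin (27.3% of all genes), and 5 upon shRNA7 (36.6%). When each hairpin list was reduced to the 5287 peaks of highest significance score, 5 members had a TSS peak with the control hairpin (17.3% of all genes, as before), 6 upon shRNA5 (18.8%) and 2 upon shRNA7 (18.4%). Of these 5 control genes, 3 kept a TSS peak when scores under 100 were left out.

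CCND1 and CCND2 had the fewest TSS tags of the set upon shRNA7 and with doxycycline. CCND1 (chr11:69455924-69469242, plus strand, 13.3 kb), the growth factor-responsive D-type cyclin, had no peak with the control hairpin or upon shRNA5. Upon shRNA7 its TSS peak held 62 tags (exact Poisson interval 47.5 to 79.5), without doxycycline 52 and with it 32. Its shRNA7 peak ranked at percentile 8.44 of all genes with a TSS peak in that list, and its doxycycline peak at 28.4 against 56.2 without the drug. The 2 body peaks upon shRNA7, of 68 and 36 tags, had false discovery rates (FDR) of 7.34% and 10.15%. Without doxycycline 7 body peaks of 11 to 33 tags were spread over the gene, and with it there was 1, of 13 tags. The share of its body under peaks was accordingly 40.6% without and 3.96% with the drug, the widest gap of the 10 members in this arm.

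CCND2 (chr12:4378937-4414519, plus strand, 35.6 kb), another D-type cyclin, had no control peak and low TSS peaks elsewhere, of 35 and 67 tags upon shRNA5 and shRNA7 and of 42 and 27 tags in the absence and presence of doxycycline. Its shRNA5 peak stood at percentile 0.465 of that list, among the lowest of all genes. As at CCND1, doxycycline went with fewer body peaks, 2 in place of 11, and all 11 had their summit in introns. The body under peaks was 28.1% without and 5.79% with the drug.

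CCND3 (chr6:41902672-42018095, minus strand, 115 kb) differed from the other D-type genes because it has 11 coding start sites in separate groups, the upstream one facing TAF8, a TFIID subunit gene. The only TSS peak of the control list lay there, 109 kb upstream of the leading TSS, with 90 tags, and it touched TAF8 too, so that the signal of the genes cannot be told apart. At the leading TSS there was no control peak. Peaks of 75 tags upon shRNA5 and 85 tags upon shRNA7 lay there, and the doxycycline arm had 26 tags without and 43 with the drug. The control list also had a body peak of 340 tags over the 3′ end, which ran 1.54 kb past it. Upon shRNA5 the same stretch lay under a peak of 1065 tags and 13972 bp, which touched the leading TSS window and reached into the ribosome biogenesis gene BYSL. Upon shRNA7 no peak covered the 3′ end, and from 5 kb past it to 500 bp inside the leading TSS the list held only the TSS peak of 85 tags. The body peak over the 3′ end had 149 tags without and 225 with doxycycline.

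Both E-type genes lacked control peaks. CCNE1 (chr19:30302898-30315219, plus strand, 12.3 kb), a CDK2 activator with no other coding gene under any of its peaks, had 1 TSS peak of 357 tags upon shRNA5 and 1 of 323 tags upon shRNA7. These counted as TSS peaks through inner start sites only, since they began 948 and 1420 bp past the leading TSS, where neither hairpin list had a peak. In the doxycycline arm the leading TSS did carry peaks, with 38 tags without and 57 with the drug. Inner parts of CCNE1 lay under peaks in this arm too, the largest of 34 tags without and 28 with the drug. The arms thus differed in whether a peak was called at the leading TSS. CCNE2 (chromosome 8, 95891998 to 95908906, minus strand, 16.9 kb) had TSS peaks with 115 and 324 tags upon shRNA5 and shRNA7, and 55 and 45 tags in the absence and presence of doxycycline. Its start lies beside NDUFAF6 and its end over INTS8, an Integrator subunit gene, and the 705-tag body peak upon shRNA7 ran 5.99 kb past the 3′ end into INTS8.

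The A- and B-type genes each had a TSS peak in all 5 lists. CCNA2 (chr4:122737599-122745038, minus strand, 7.44 kb) had a TSS peak of 92 tags with the control hairpin, 268 upon shRNA5 and 1303 upon shRNA7, and of 68 without and 71 with doxycycline. In each list this TSS peak also touched BBS7, so its tags are not those of CCNA2 alone. CCNA2 was the only member with a peak over its 3′ end in all 5 lists, shared with EXOSC9, an exosome subunit gene whose end overlaps its own. CCNB1 (chr5:68462962-68474072, plus strand, 11.1 kb) had 90, 850 and 1198 tags in TSS peaks with control hairpin, shRNA5 and shRNA7, and 114 and 121 without and with doxycycline. No other coding gene lay under any of its peaks. Of the 850 tags upon shRNA5, 643 were in a second peak that counted as a TSS peak through an inner start site, and the leading TSS had 207. CCNB2 (chr15:59397325-59417244, plus strand, 19.9 kb), also with no other coding gene under its peaks, had 56, 197 and 243 tags in the hairpin arm and 41 and 86 in the doxycycline arm, all in 1 TSS peak per list. Upon shRNA7 it had 5 body peaks of 40 to 88 tags, of which 1 had an FDR of at most 5%.

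The last members do not follow the classical cycle. CCNG1 (chr5:162864575-162873157, plus strand, 8.58 kb), a p53 target, had the highest TSS tags of the set upon shRNA7 and without doxycycline. They were 120 with the control hairpin, 409 upon shRNA5 and 3105 upon shRNA7, and 160 without and 152 with doxycycline. The shRNA7 peak was 26302 bp long and also covered NUDCD2, its convergent neighbour, and part of HMMR, so its tags are not those of CCNG1 alone. CCNI (chr4:77968308-77997462, minus strand, 29.2 kb), an atypical cyclin whose level varies little over the cycle, had no control peak, then 260 tags upon shRNA5 and 291 upon shRNA7. It had 50 tags without doxycycline and 61 with it. In both hairpin lists these tags were split between a peak at the leading TSS and one that began 1172 or 1139 bp inside the gene.

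**Figure D2:**
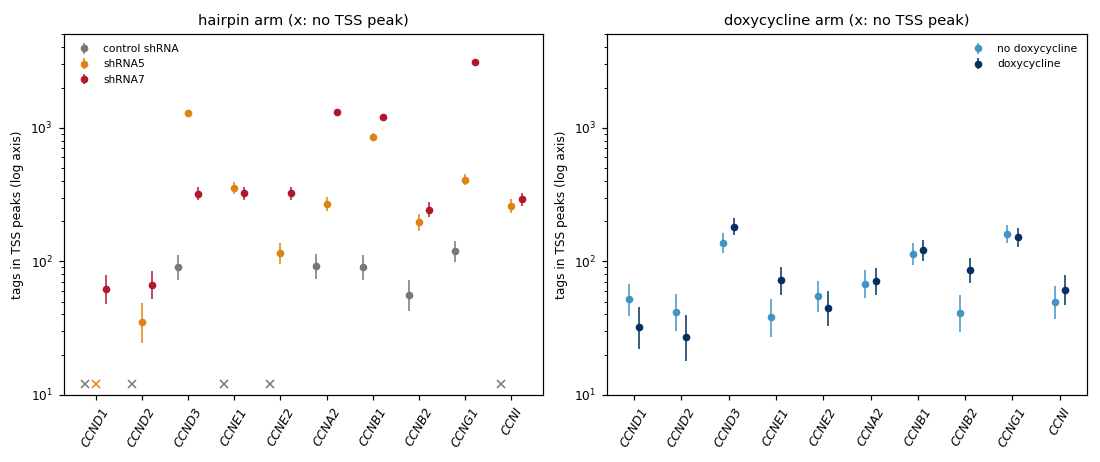
Tags in TSS peaks of each cyclin gene (log axis), by list, in the hairpin arm (left) and the doxycycline arm (right), with exact Poisson 95% intervals as bars and crosses where a list had no TSS peak. In the hairpin arm the control points lie between 56 and 120 tags and the knockdown points above them wherever both exist, while in the doxycycline arm the points of most genes overlap within their intervals.

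The next comparison was of TSS tags between lists, called at 1.5-fold or more in either direction. All 5 members with TSS peaks in both lists were higher upon shRNA5 than with the control hairpin, as were 85.4% of the 3396 genes so placed, and all 5 were higher upon shRNA7, as were 98.2% of 3211 genes. The members' counts were therefore near the background. Over all genes the median ratio was 2.14 upon shRNA5 and 3.73 upon shRNA7. Upon shRNA5 CCNB1 was 9.44-fold higher (interval 7.59 to 11.9), or 2.3-fold at the leading TSS alone (1.79 to 2.98). CCNA2 was 2.91-fold higher (2.29 to 3.73) and CCNG1 3.41-fold (2.77 to 4.21), but with peaks under 1 kb apart merged these ratios were 11.6 and 9.44, while CCNB2 stood at 3.52-fold (2.6 to 4.82). CCND3 was 14.4-fold higher (11.6 to 18.1), yet this set the control peak facing TAF8 against shRNA5 tags of which 1065 of 1298 were in the peak over the 3′ end. Its ratio was 2.59 by summits and 1.76 at the TSS of the longest transcript, and no ratio exists at its leading TSS. Upon shRNA7 CCNG1 was 25.9-fold higher (21.6 to 31.3), CCNA2 14.2-fold (11.5 to 17.7) and CCNB1 13.3-fold (10.7 to 16.7), while CCND3 at 3.57-fold (2.81 to 4.56) and CCNB2 at 4.34-fold (3.23 to 5.91) were close to the median of all genes. The 5 ratios above 9 rested on long peaks, of 10237 to 26302 bp. Taken per kb of TSS peak, 0 of the 5 passed 1.5-fold upon shRNA5, with CCNG1 at 0.978, and 4 did upon shRNA7, with a highest value of 2 at CCNA2. The share of all genes passing this call per kb was not counted. The medians per kb over all genes were 1.33 and 1.55, so the shRNA7 median was itself above the call.

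In the doxycycline arm 2 of 10 members were at least 1.5-fold higher with the drug (12.7% of 9320 genes) and 2 were at least 1.5-fold lower (16.7%). Those higher were CCNB2, at 2.1-fold (interval 1.43 to 3.12), and CCNE1, at 1.89-fold (1.26 to 2.89). Those lower were CCND1, at 0.615-fold (0.383 to 0.974), and CCND2, at 0.643-fold (0.381 to 1.07), and the interval of CCND2 included 1. The other 6 lay between 0.818-fold at CCNE2 and 1.33-fold at CCND3, and the median ratio of all genes was 1. Per kb of TSS peak the ratio of CCNE1 turned to 0.852, that of CCNB2 was 1.8, that of CCNA2 passed the call at 1.66 (1.17 to 2.34), and those of CCND1 and CCND2 were 0.689 and 0.742, short of the 1.5-fold call. With peaks under 1 kb apart merged CCND2 was at 0.303 (0.19 to 0.471) and CCND3 at 2.7 (2.23 to 3.27). For CCND3 with the drug, merging joined the 225-tag peak over the 3′ end to TSS peaks. Its ratio was 0.809 at the TSS of the longest transcript, 0.839 by summits and 1.65 at the leading TSS. The direction at CCND3 thus varied with the setting.

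**Figure D3:**
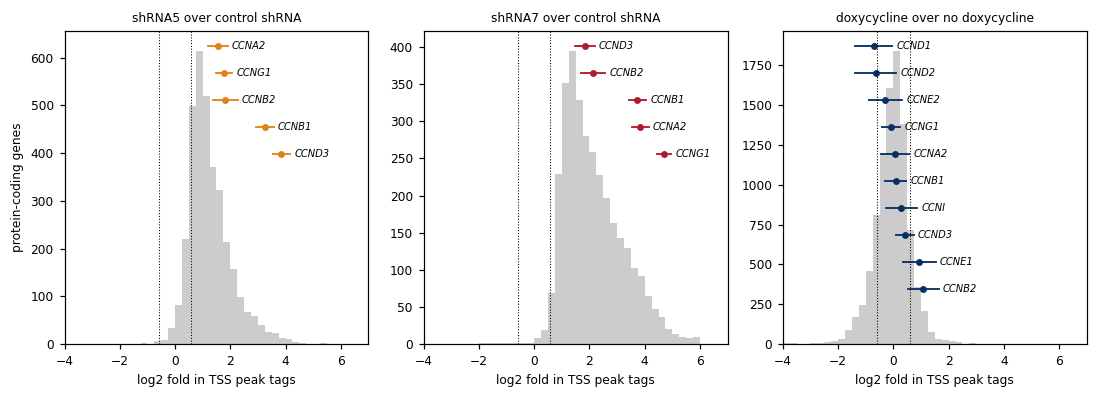
Log2 fold in TSS peak tags for members with a TSS peak in both lists (points with 95% counting intervals, stacked only for legibility) over the histogram of all protein-coding genes so placed (grey), with dotted lines at 1.5-fold either way. CCND3 and CCNB1 upon shRNA5 and CCNG1, CCNA2 and CCNB1 upon shRNA7 lie in the upper tail, and CCND1 and CCND2 lie lowest with doxycycline.

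Within each list the members were not uniformly strong. The median percentile of their TSS tags among all genes with a TSS peak was 48.7 with the control hairpin (5 members), 77.9 upon shRNA5 (9), 68 upon shRNA7 (10), and 57.7 and 66 in the absence and presence of doxycycline (10 each). CCNG1 ranked between 63.9 and 97.8 and CCNB1 between 48.7 and 93.3 in the 5 lists. CCND2 never passed 46.1.

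Gene bodies were examined next. Body peaks over the members numbered 4 with the control hairpin, 8 upon shRNA5 and 10 upon shRNA7, and 41 without and 20 with doxycycline. They were found on 4, 6 and 5 members in the hairpin arm, against 10.1%, 32.8% and 40.3% of all genes, and on 10 and 9 members without and with doxycycline, against 42.1% and 29.4%. More body peaks than with the control hairpin were found at 4 members upon shRNA5 (28.9% of all genes) and at 5 upon shRNA7 (37.3%), but fewer at 2 members upon shRNA5 (2% of all genes) and at 4 upon shRNA7 (3.68%), all of which had their control body peak taken into a longer peak, except CCND3 upon shRNA7. With doxycycline 7 members had fewer body peaks (29% of all genes) and 2 had more (9.18%), namely CCNB1 with 5 in place of 3 and CCNE2 with 3 in place of 2. Body peaks in this arm were mostly small, and their tags summed over the members were 864 without and 811 with doxycycline. The number of body peaks thus fell further than the tags in them. Leaving out scores under 100 gave counts of 16 and 5 without and with doxycycline, and leaving out a fold enrichment under 10 gave 36 and 4.

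The share of the body under peaks was taken from 500 bp past the first coding TSS to the gene end. Its median over all 10 members, those without a peak entering at 0, was 0.317% with the control hairpin, 25.5% and 60.4% upon shRNA5 and shRNA7, and 25.3% without and 13.7% with doxycycline. Over the members with a TSS peak in the same list (5, 9, 10, 10 and 10) it was 19.1%, 34.5%, 60.4%, 25.3% and 13.7%, against 3.01%, 8.21%, 14.3%, 2.88% and 1.84% over all genes with a TSS peak. Members are mostly short genes. For those under 20 kb with a TSS peak (4, 6, 7, 7 and 7) the medians were 24.1%, 69.9%, 78%, 34.9% and 21.8%, against 15.2%, 30.6%, 56.9%, 11.5% and 6.53% over all such genes. The share was higher than with the control hairpin at 9 of 9 members with any covered body base upon shRNA5 (96.6% of all such genes) and at 9 of 10 upon shRNA7 (96.6%), so the direction was that of nearly all genes. CCND3 was the exception upon shRNA7, at 1.34% against 3.47%. With doxycycline the share was lower at 7 of 10 members (73% of all such genes) and higher at CCND3, CCNE2 and CCNG1. With peaks of fold enrichment of at least 10 the shRNA7 median was 11%, with an FDR of at most 5% it was 33.3%, and with the lists reduced to equal length it was 0%, against 0.317% in the control list.

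CCNA2, CCNB1 and CCNG1 were covered along their entire body upon shRNA7, each by 1 peak, as were 8.34% of all genes with a TSS peak in that list. Their covered shares were 33.7%, 19.1% and 29.1% with the control hairpin and 99.9%, 96.1% and 97.6% upon shRNA5. In the control list these genes had 1 peak at the start and 1 at the end with an open middle. The significance scores of the shRNA7 peaks at CCNA2 and CCNB1, of 155.48 and 128.43, were below the lowest score of 394.07 in the list once reduced to 5287 peaks, and neither peak was in it. CCNE1 and CCNE2, with no control peak, reached 78% and 74.2% upon shRNA7, where a 4421-bp body peak at CCNE1 had an FDR of 6.13%. CCNB2 reached 46.6% and CCNI 26%, whereas CCND1, CCND2 and CCND3 stayed at 14.4%, 3.24% and 1.34%. The D-type genes thus had the lowest covered shares of the set upon shRNA7, whereas CCND1 and CCND2 were above the median of the set without doxycycline. CCND2 and CCND3, at 35.6 and 115 kb, are also the longest members, while CCND1 spans 13.3 kb. Upon shRNA7 the median share was 14.3% over all genes with a TSS peak and 56.9% over those under 20 kb. Whether class or length went with the low shares was not tested.

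**Figure D4:**
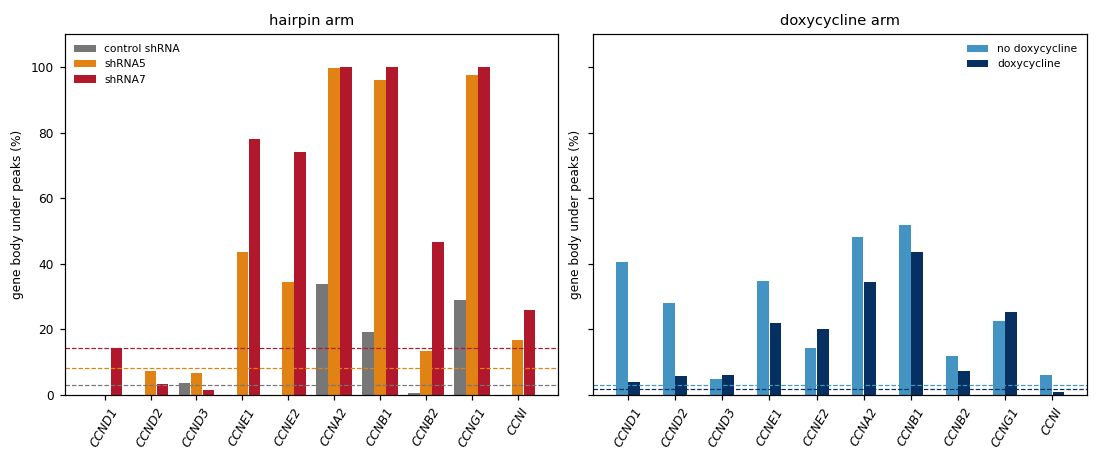
Percent of each cyclin gene body under peaks (bars from 0) in the hairpin arm (left) and the doxycycline arm (right), with dashed lines at the median over all protein-coding genes with a TSS peak in the same list. CCNA2, CCNB1 and CCNG1 reach 100% upon shRNA7, CCND1 and CCND2 stand at 40.6% and 28.1% without and at 3.96% and 5.79% with doxycycline, and CCND3 stays below 7% in each list.

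All 4 body peaks of the control list covered the annotated 3′ end of their gene. This was counted after the peaks had been seen. Peaks over the 3′ end were present at 4 of 10 members with the control hairpin (CCND3, CCNA2, CCNB1 and CCNG1), against 6.93% of all genes. They were at the same 4 genes upon shRNA5 (19.8% of all genes) and at 5 upon shRNA7 (29%), where CCNE2 and CCNI joined and CCND3 was absent. At CCNB1, where no neighbouring coding gene interferes, this peak ran 0.802 kb past the end with the control hairpin, 1.93 kb upon shRNA5 and 3.02 kb upon shRNA7. At CCNG1 the distances were 4.6, 8.27 and 16.5 kb, over NUDCD2, which ends next to it on the opposite strand. Upon shRNA7 the peak at each of these genes was a single one that also held the TSS, unlike the control peak over the end. In the doxycycline arm the 3′ end was covered at 4 members without the drug (11.1% of all genes) and at 3 with it (9.15%), with CCND3 and CCNA2 in both. In the other lists many body summits lay in introns, at 4 of 8 body peaks upon shRNA5, 7 of 10 upon shRNA7, 31 of 41 without and 14 of 20 with doxycycline. Body peaks were richer in A+T than TSS peaks in each list, with medians over 2 kb around the summit of 54.5 to 64% and 42.5 to 50.5%. The distances past the 3′ end, the intron counts and the A+T medians were not computed over all genes, so none is shown to be particular to the members.

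The other genes of the pathway, on lists fixed with earlier results of these data known, were counted in the same way. TSS peaks were found at 6, 13 and 13 of 19 other cyclins with control hairpin, shRNA5 and shRNA7, and at 15 and 12 without and with doxycycline. Over all protein-coding genes the shares with a TSS peak were 17.3%, 44.5%, 52.8%, 57% and 48.2% in the same order. These shares apply to each gene list below. The splicing-associated CCNL2 had 356, 928 and 2087 tags and then 364 and 386. Of 8 cell cycle CDKs and partners 5 had a control TSS peak and 8 had one in each other list, and CDK4, the partner of the D-type cyclins, had 156, 1021 and 1500 tags, then 113 and 197. CDK inhibitors had TSS peaks at 4 of 7 with the control hairpin and at 6 of 7 in each other list. Their strongest gene, CDKN2A, shares its locus with CDKN2B and had 232, 1965 and 5081 tags in the hairpin arm. Of the 5 kinases and phosphatases that act on CDK phosphorylation, 3 had a control TSS peak and 5 in each other list, with WEE1, an inhibitory kinase, at 105, 1079 and 2171 tags. The RB and E2F genes had TSS peaks at 2, 6, 8, 8 and 7 of 8, and the genes of cyclin turnover at 3 of 5 and then 5 of 5, CDC20 among them with 89, 201 and 985 tags. With doxycycline, fewer body peaks were found at 9 of 19 other cyclins and more at 3, beside 29% and 9.18% of all genes. The counts of fewer and more were 4 and 2 of 8 CDKs and partners, 2 and 1 of 7 CDK inhibitors, 2 and 1 of 5 genes of CDK phosphorylation, 4 and 3 of 8 RB and E2F genes, and 3 and 0 of 5 turnover genes. Body peaks over the RB and E2F genes numbered 54 without and 63 with the drug.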

How the data were processed

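Per the labels, RNAPII ChIP-seq libraries were made from HEK293 cells of 5 groups, and 4 IgG libraries served as background, one for each hairpin and 1 untreated library for both doxycycline lists. According to the submitters' processing notes, the authors used CASAVA 1.8, aligned reads with Bowtie 0.12.7 to hg19 (GRCh37) and called peaks with MACS 1.4.2, each RNAPII library by itself. The deposited tags are counts per peak, not normalised. The significance score deposited with each peak is −log10 of its p-value times 10, the deposited fold enrichment is a ratio over local background, and the deposited FDR is in percent. A lower limit of 50 on the score held in each list, and all peaks ended within the GRCh37 chromosomes.

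Peaks were assigned to genes of GENCODE 44 lifted to GRCh37 by an overlap of at least 1 bp, with Python 3.11.15, NumPy 2.4.6, pandas 2.3.3 and SciPy 1.17.1. For each member and list, the TSS peaks, their summed tags with exact Poisson 95% intervals, the body peaks, the percentile of TSS tags and the percent of the body under peaks were computed, and the same over all 19820 protein-coding genes. Ratios of tags carry a Clopper-Pearson 95% interval turned into odds. A 1.5-fold difference was called. PCR reads are not independent molecules, so intervals cover counting error only, and the weakest peaks of the lists rested on 9 to 35 tags. Exact library totals were not given in the sources used here, only that compared samples had similar read numbers, and tags were not scaled by depth. Counting was tested on simulated peaks. AT content was taken over 2 kb around summits. All 10 members are named, and of other lists at most the 3 genes with most TSS tags. Members and gene lists were chosen with earlier results of these data known. CCNI was to have its promoter printed, but that window lies within exons of other transcripts. With 1 library per group no p-value was computed. The closing section gives 9 alternatives, and 2 more were added after seeing the data.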

Additional observations from a re-analysis of the deposited data

Results flagged for a closer look

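By the share of the gene body under peaks, CCND3 was the only member at which the 2 hairpins differed from the control hairpin in opposite directions. This share was 3.47% with the control hairpin, 6.82% upon shRNA5 and 1.34% upon shRNA7. This was seen in single libraries and the difference was not tested. The 340-tag peak over its 3′ end in the control list had a counterpart of 1065 tags upon shRNA5 and none upon shRNA7. Groups of 1 library allow no search for samples that stand apart.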

How the results depend on the processing

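Of 244 recomputed counts and medians, 218 stayed within their limits (1.5-fold for a count, the spread between members for a median) and 26 moved. The 218 do not measure stability, because some could not move. The covered share does not use the TSS choice, TSS window, widening or summits. An FDR limit of 5% left the shRNA5 and both doxycycline lists unchanged, and equal length left the control and doxycycline lists unchanged. The limits for medians were also wide, from 3.24% to 100% for the shRNA7 covered share. With a significance score of at least 100, members with a control TSS peak numbered 3, body peaks 4 upon shRNA5, 3 upon shRNA7, 16 without and 5 with doxycycline, and members called higher 3 upon shRNA5 and 3 upon shRNA7. With an FDR of at most 5% body peaks upon shRNA7 numbered 3. With a fold enrichment of at least 10 they numbered 2 upon shRNA5, 2 upon shRNA7 and 4 with doxycycline, and 1 member was called higher with doxycycline. Merging peaks under 1 kb apart left 6, 20 and 11 body peaks upon shRNA7, without and with doxycycline. A TSS window of 1 kb left 1 member called higher with doxycycline. The TSS of the longest transcript gave 14 body peaks upon shRNA5, and summits in place of overlap gave 2 in the control list. With lists of equal length, body peaks were 2 upon shRNA5 and 2 upon shRNA7, the median covered share 3.53% and 0%, members with an shRNA7 TSS peak 2 and those called higher upon shRNA7 2. Per kb of TSS peak, chosen after seeing the data, 0 members were called higher upon shRNA5 and 0 lower with doxycycline, and CCNG1 upon shRNA5 (0.978) and CCNE1 with doxycycline (0.852) changed direction. Besides these 2 reversals, 31 of 209 recomputed ratios of single members moved beyond their counting interval. Among them were CCND3 (14.4 to 1.76 with the longest transcript) and CCNA2 (2.91 to 11.6 with merged peaks) upon shRNA5, and CCND2 (0.643 to 0.303) and CCND3 (1.33 to 2.7) with doxycycline and merged peaks. With doxycycline CCND3 also moved to 0.809 with the longest transcript and to 0.839 by summits. The leading TSS alone, also chosen after seeing the data, moved no count by over 1.5-fold. The shortening of the lists by each filter accounts for lower counts by construction, and other causes were not tested.

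No paired analysis was possible because there was 1 library in each group, and for the same reason no replicate was left out. Peak lists hold no tags outside peaks, so a gene without a peak is not shown to lack RNAPII. Broad peaks add tags of neighbouring genes to those of CCND3, CCNE2, CCNA2 and CCNG1.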
